A study of Mus musculus with 6 samples.

Results

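The complement genes described here are the 9 rows of the table whose gene symbol is C3, C4b, C2, Cfb, Cfi, C1ra, C1s1, Cd55 or Cd59a, out of 25416 genes in all, and each symbol matched exactly 1 row. They were measured by RNA-seq in AML12, an established mouse hepatocyte line derived from an animal that carried a transgene for human TGF alpha, which all samples share. In the siNC group (n = 3) the cells were transfected with scrambled RNA, in the siSetdb1 group (n = 3) with siRNA against Setdb1, a methyltransferase gene for lysine 9 of histone H3, and both groups were collected after 72 h. No label ties the libraries of a group to separate cultures, so the spread between them may be technical. The 9 genes were picked with results of the siSetdb1 and siNC comparison already known. Their values in it are therefore a description and carry no p-value.

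Complement is a cascade of plasma proteins, most of them secreted by hepatocytes, that tags targets for uptake and can pierce membranes. The classical branch starts with the proteases C1r and C1s, bound to C1q: C1r activates C1s, which cleaves C4 and C2. The alternative branch is driven by factor B. Both branches form enzymes that cleave C3, the protein on which they converge. Soluble factor I and the membrane proteins CD55 and CD59 hold the cascade back on the body's own cells. Many hepatic complement genes belong to the acute-phase response, in which inflammatory cytokines raise their transcription.

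The bases ahead of the start sites are printed for 3 genes that were lower together in siSetdb1 (C3, C1ra and C1s1) and for Cd59a, whose groups overlapped. RefSeq promoters (GRCm38.p6) were matched for 5 members, these 4 and Cd55, and not for C4b, C2, Cfb and Cfi. Each run holds the 250 bases before the start that RefSeq annotates, 5′ to 3′ on the gene's own strand. For C1ra that start lies inside the gene as the deposited table places it (from 124512405), so most of its run is within the gene by those coordinates. C3 is at chr17:57228137-57228386 (minus strand), C1ra at chr6:124512371-124512620 (plus strand), C1s1 at chr6:124542360-124542609 (minus strand, the farther upstream of 2 annotated starts) and Cd59a at chr2:104095551-104095800 (plus strand). Capitals mark matches to a motif.
C3: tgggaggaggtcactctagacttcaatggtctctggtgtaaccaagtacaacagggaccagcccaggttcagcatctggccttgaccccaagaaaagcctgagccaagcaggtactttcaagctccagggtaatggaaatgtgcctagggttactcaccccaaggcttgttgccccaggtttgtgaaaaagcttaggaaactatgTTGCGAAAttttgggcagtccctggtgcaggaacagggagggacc
C1ra: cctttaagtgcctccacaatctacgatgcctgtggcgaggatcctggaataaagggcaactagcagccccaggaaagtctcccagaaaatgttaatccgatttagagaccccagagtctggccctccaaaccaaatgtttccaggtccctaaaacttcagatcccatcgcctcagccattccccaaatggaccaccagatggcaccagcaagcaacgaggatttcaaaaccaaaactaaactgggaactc
C1s1: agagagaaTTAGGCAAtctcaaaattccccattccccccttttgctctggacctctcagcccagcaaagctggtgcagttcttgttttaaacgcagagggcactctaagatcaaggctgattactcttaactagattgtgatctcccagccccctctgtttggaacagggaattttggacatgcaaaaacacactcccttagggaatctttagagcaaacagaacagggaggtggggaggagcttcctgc
Cd59a: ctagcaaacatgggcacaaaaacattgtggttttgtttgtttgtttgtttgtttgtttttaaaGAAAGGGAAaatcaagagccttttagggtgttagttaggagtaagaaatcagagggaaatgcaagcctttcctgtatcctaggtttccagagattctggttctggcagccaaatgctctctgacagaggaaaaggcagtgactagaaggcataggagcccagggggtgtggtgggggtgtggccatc

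The search covered 4 motifs on both strands, and no match overlapped another. TTGCNNAA, a core bound by C/EBP factors, which drive acute-phase genes, was found in C3 as TTGCGAAA at 45 to 38 bases before the start and in C1s1 as TTAGGCAA (the other strand) at 242 to 235 bases before the start. It was present in 9.6% of all 32851 promoter windows of this length. GAAANNGAA, a core of interferon response elements, was found in Cd59a as GAAAGGGAA at 187 to 179 bases before the start and in 7.1% of all windows. TTCNNNGAA, a core bound by STAT factors (7.0% of windows), and the NF-kB motif (7.3% of windows) had no match in the 5 promoters. C1ra and Cd55 held none of the 4 motifs. These matches describe letters only.

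Depth was even, with 16790583 to 17835062 reads per library recovered from the deposited FPKM (reads scaled to exon length and library total). Setdb1 itself had 8.41, 8.54 and 9.43 FPKM with scrambled RNA and dropped to 4.29, 4.21 and 3.29 FPKM with its siRNA (log2 fold change -0.995, SE 0.10, limma adjusted p = 0.00183). siNC replicate 1 stood apart from the other siNC libraries, at 15.0 on the second principal component against -10.7 and -14.0. Of 10 hepatocyte markers found, 8 reached 0.5 FPKM in each library, while Cps1 and Serpina1a stayed under 0.5 FPKM in all 6. The summed level of the 10 was 2833.8 to 3237.5 FPKM in siNC and 3364.2 to 3481.6 FPKM in siSetdb1, most of it the keratins Krt8 and Krt18. Trf and Ttr, markers of secreted proteins, passed lower and the keratin Krt18 passed higher. The mean of Trf went from 23.8 to 8.67 FPKM (limma adjusted p = 0.00816) and that of Ttr from 27.5 to 7.02 FPKM (0.0247), while Krt18 went from 1633.2 to 2012.1 FPKM (0.0364). Alb (7.93 to 2.61 FPKM), Apoa1 (22.9 to 8.38), Apob (7.83 to 10.3), Hnf4a (34.7 to 29.8) and Krt8 (1266.5 to 1359.1) did not pass. The mean of Apob, also the gene of a secreted protein, was thus higher in siSetdb1, but its groups overlapped. Apob had 3.9, 9.32 and 10.3 FPKM in siNC, with the low value in replicate 1, and 11.3, 10.9 and 8.84 FPKM in siSetdb1. Of 5 biliary markers found, 4 reached 0.5 FPKM in each library and Cftr had 1 read in all, with a sum of 1610.9 to 1792.5 FPKM in siNC and 1604.3 to 1784.0 FPKM in siSetdb1. Among them Sox9 rose from 4.95 to 9.26 FPKM (limma adjusted p = 0.0068) and Krt7 from 154.5 to 218.4 FPKM (0.00827), Spp1 fell from 220.3 to 114.9 FPKM (0.00689), and Krt19 did not pass (1300.2 to 1352.8 FPKM). Macrophages can make complement too. The summed level of their 4 markers found was 4.75 to 6.64 FPKM in siNC and 2.39 to 3.17 FPKM in siSetdb1. Most of it was Cd68, which fell from 5.27 to 2.48 FPKM (limma adjusted p = 0.012). The defining markers Ptprc and Csf1r stayed under 0.5 FPKM in all libraries. Csf1r (0.152 to 0.0794 FPKM) and Lyz2 (0.428 to 0.175) were below the filter and lower without overlap, while Ptprc overlapped. The part of these marker differences in the results below was not tested.

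C3 carried almost all the signal of the set and was much lower in the knockdown libraries. C3 (ENSMUSG00000024164, chromosome 17, 57203970 to 57228136 of mm10, minus strand) had 64.7, 48.1 and 59.0 FPKM in siNC and 13.6, 8.95 and 16.5 FPKM in siSetdb1. Every siSetdb1 library lay below every siNC library, with siSetdb1 replicate 2 the lowest. The mean was 57.3 ± 8.43 FPKM (SD, n = 3) against 13.0 ± 3.83 FPKM (SD, n = 3), which is 4.39-fold lower, and 4.1-fold lower without siNC replicate 1. On the log2(FPKM + 1) scale the change was -2.08 (SE 0.21). Between 786 and 5590 reads stood behind each value, and none of the 5179 distinct 50-base windows of the C3 transcripts occurs in a transcript of another gene. Reads of the 9 genes together numbered 4482 to 5801 per siNC library and 856 to 1600 per siSetdb1 library, and C3 supplied 91.8% to 96.4% of them. In these bulk libraries, fewer cells that express a gene and less RNA per cell cannot be told apart.

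**Figure D1:**
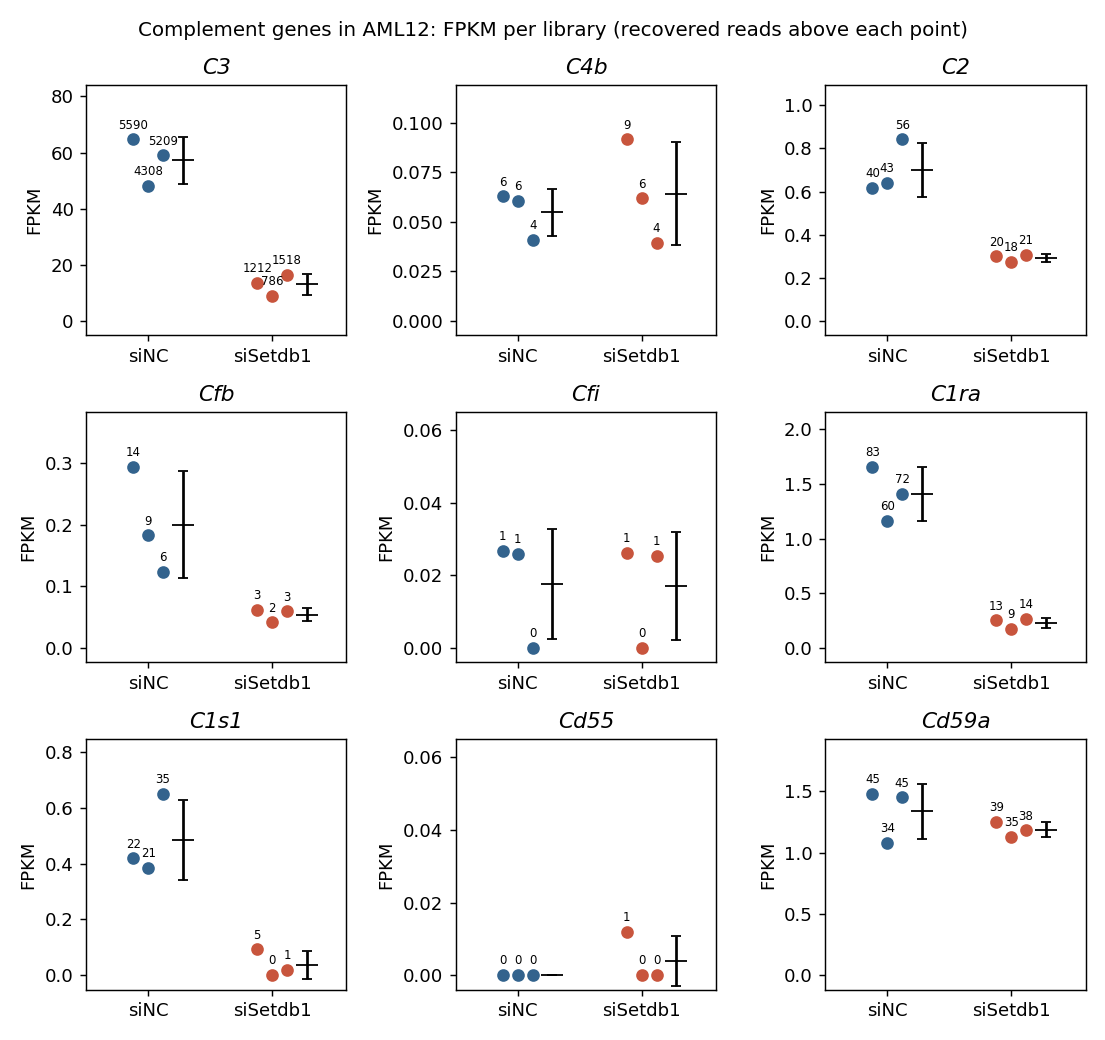
FPKM of each of the 9 complement genes (vertical axes, each from 0 and with its own scale) in the 3 siNC and 3 siSetdb1 libraries. Points are libraries, the number above a point is its recovered read count, and the bar beside each group is the mean ± SD. The siSetdb1 points lie below all siNC points for C3, C2, Cfb, C1ra and C1s1, while Cfi and Cd55 have at most 1 read per library.

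The genes of the C1 proteases were lower in siSetdb1 as well, from a far smaller base. C1ra (ENSMUSG00000055172, chromosome 6, 124512405 to 124523443, plus strand) encodes C1r, which activates C1s. It had 1.66, 1.16 and 1.41 FPKM in siNC and 0.252, 0.177 and 0.263 FPKM in siSetdb1. The groups were wide apart, with means of 1.41 ± 0.251 and 0.231 ± 0.0471 FPKM (SD, n = 3 each), 6.09-fold lower in siSetdb1. The pseudocount shrinks this on the log2(FPKM + 1) scale to -0.96 (SE 0.11), while the fit on recovered reads gave -2.56. C1s1 (ENSMUSG00000038521, chromosome 6, 124530345 to 124542359, minus strand), the gene of C1s, which cleaves C4 and C2, had 22, 21 and 35 reads in siNC and 5, 0 and 1 in siSetdb1. Its level fell short of the filter on low values, at 0.485 ± 0.145 FPKM in siNC and 0.0368 ± 0.0491 FPKM in siSetdb1 (SD, n = 3 each). The knockdown libraries thus held 6 reads of it in all against 78 in the controls.

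C1ra and C1s1 lie tail to tail in a cluster of related genes, and the other copies bear on how their reads are assigned. Of the 2932 distinct 50-base windows of C1ra, 48.02% also occur in C1rb, and of the 3218 windows of C1s1, 21.85% occur in C1s2. Gm18840 shares 4.47% of the C1ra windows and Gm16567 shares 13.52% of the C1s1 windows. In all, 50.82% of the C1ra windows and 35.11% of the C1s1 windows occur in another gene. C1rb, the second C1r gene, had 3, 4 and 9 reads in siNC and 2, 2 and 2 in siSetdb1. C1s2 had 3, 2 and 2 reads in siNC and 0, 2 and 0 in siSetdb1. C1rl, a C1r-like protease gene beside C1ra, had 22, 11 and 27 reads in siNC and 8, 3 and 4 in siSetdb1, again without overlap. None of these 3 reached the filter, and how the authors placed reads that fit several copies is not given in the sources used here.

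C2 and Cfb, the protease subunits of the classical and alternative C3-cleaving enzymes, are neighbours in the MHC class III region and were both lower. C2 (ENSMUSG00000024371, chromosome 17, 34862604 to 34898265, minus strand) had 0.615, 0.638 and 0.842 FPKM in siNC and 0.299, 0.272 and 0.304 FPKM in siSetdb1. The siSetdb1 libraries were close together and all below the controls. Means were 0.698 ± 0.125 and 0.292 ± 0.0171 FPKM (SD, n = 3 each), 2.39-fold lower, from 139 reads in siNC and 59 in siSetdb1. Cfb (ENSMUSG00000090231, chromosome 17, 34856374 to 34862518, minus strand), the factor B gene, had 14, 9 and 6 reads in siNC and 3, 2 and 3 in siSetdb1. Its groups did not overlap, but at 0.201 ± 0.0871 and 0.0542 ± 0.011 FPKM (SD, n = 3 each) the 3.7-fold difference rests on 29 and 8 reads and is 2.83-fold without siNC replicate 1. A readthrough transcript annotated across both genes (Gm20547, not analysed here) shares 73.01% of the 50-base windows of Cfb and 38.68% of those of C2. Zbtb12, on the opposite strand within the annotated span of C2, shares 2.87% of the C2 windows. It had 6.12 ± 0.406 FPKM in siNC and 5.05 ± 0.131 FPKM in siSetdb1 (SD, n = 3 each), lower without overlap. The part of shared reads in the C2 and Cfb values was not tested.

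C4b, which encodes the C4 protein that pairs with C2, was barely detected and showed no separation. C4b (ENSMUSG00000073418, chromosome 17, 34728380 to 34743882, minus strand) had 6, 6 and 4 reads in siNC and 9, 6 and 4 in siSetdb1. These are 0.0547 ± 0.012 and 0.0642 ± 0.0261 FPKM (SD, n = 3 each), so the groups overlapped. Its paralog C4a, which shares 34.57% of the C4b windows, had 16, 9 and 25 reads against 13, 12 and 21 and overlapped too. At this depth a moderate difference in either C4 gene was not detectable.

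None of the 3 inhibitors in the set separated the groups. Cd59a (ENSMUSG00000032679, chromosome 2, 104095801 to 104115354, plus strand), whose product blocks assembly of the membrane pore, had 1.48, 1.08 and 1.45 FPKM in siNC and 1.25, 1.13 and 1.18 FPKM in siSetdb1. The groups overlapped, with means of 1.34 ± 0.223 and 1.19 ± 0.0578 FPKM (SD, n = 3 each) and a change of -0.09 (SE 0.10) on the log2(FPKM + 1) scale. Cfi (ENSMUSG00000058952, chromosome 3, 129835884 to 129875332, plus strand), the gene of factor I, which degrades activated C3 and C4, had at most 1 read in any library. Cd55 (ENSMUSG00000026399, chromosome 1, 130439027 to 130462744, minus strand), whose product takes C3-cleaving enzymes apart, had 1 read in siSetdb1 replicate 1 and 0 in the other 5 libraries. A library with no read allows up to 3, or 0.0805 FPKM for Cfi and 0.0368 FPKM for Cd55 in the shallowest library, so no difference between groups was detectable for either gene. Of their near copies, Cd59b had 1 read in all 6 libraries together, and Cd55b was looked for by symbol and not found.

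In siNC the mean FPKM of the members ran from C3 at 57.3 through C1ra at 1.41, Cd59a at 1.34, C2 at 0.698, C1s1 at 0.485 and Cfb at 0.201 to C4b, Cfi and Cd55, each under 10 reads in every library. C1ra and Cd59a did not differ beyond their spread, nor did C2 and C1s1, whose libraries overlapped. In siSetdb1 the order after C3 was Cd59a at 1.19, C2 at 0.292 and C1ra at 0.231 FPKM, so that the inhibitor Cd59a stood above both protease genes. Of the 9 members, 5 were lower in siSetdb1 with no overlap between groups and 4 overlapped, while 13.9% of all genes in the table were lower without overlap. Only 4 members passed the filter of at least 0.5 FPKM in 3 libraries, and C2 and C1ra passed it through the siNC libraries alone. Of these 4, C3, C2 and C1ra passed the limma threshold in the downward direction, as did 8.27% of 12846 genes tested, and no member passed upward, as 6.87% of the genes did. Since the members were picked on this comparison, nothing is read from these counts. They are 3 with all libraries and 2 when any library other than siNC replicate 1 is left out, C2 being the gene that changes sides.

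Beyond the members, the rest of the complement system was sparsely expressed. Of 54 further complement genes listed by role, 34 were found and 10 were tested, of which 4 passed lower, 0 higher and 6 did not pass, against 15.1% of all genes tested passing in either direction. The list was drawn up with earlier results of these data known, and Cpn1, among the 4, reached the filter through the siNC libraries alone, so the counts are a description. Of the 34, 7 were lower and 2 higher in siSetdb1 without overlap, the latter C3ar1 and Cd93. Over all 25416 genes, a share of 13.9% were lower without overlap. The share higher without overlap was not computed, so no direction is read from the 7 and the 2. Cd93, a receptor gene once taken for a C1q receptor and named after its values were seen, was below the filter, with 11, 12 and 16 reads in siNC against 35, 33 and 31 with the siRNA, or 2.5-fold higher by mean FPKM. The median log2 fold change of the 10 was -0.21, beside -0.018 for all genes tested. Of 3 tested soluble regulators Clu and C4bp fell and Cpn1 was the one that passed through siNC, of 3 tested receptor genes 1 fell, and the single tested genes of the lectin, alternative and terminal steps and of the membrane regulators did not pass. None of the 5 further classical-branch genes found reached the filter. At an unadjusted p under 0.05, 5 of the 10 were lower and 0 higher. The share over all genes was not computed, so no direction is read from the 5 and the 0. By limma-voom 4 were called lower and 0 higher, beside 1261 lower and 1040 higher of 12837 genes. Cpn1 is included in both counts, so they too are a description.

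Clu, the gene of clusterin, which binds terminal complexes and is also a general chaperone, was the most abundant complement regulator here. It fell from 182, 146 and 167 FPKM in siNC to 100.4, 107 and 106 FPKM in siSetdb1, with no overlap (log2 fold change -0.65, SE 0.09, limma adjusted p = 0.00521). C4bp, whose product is a cofactor for factor I in degrading C4, fell from 133, 164 and 214 reads to 76, 65 and 76 reads, or 1.48 ± 0.343 to 0.618 ± 0.046 FPKM (SD, n = 3 each; log2 fold change -0.61, limma adjusted p = 0.0162). All siSetdb1 libraries again lay below all controls, although leaving out siSetdb1 replicate 1 or 2 raised the adjusted p of limma to 0.0603 or 0.0661. Cpn1, a subunit gene of carboxypeptidase N, which trims the peptides C3a and C5a, had 0.937, 0.639 and 0.710 FPKM in siNC and 0.251, 0.159 and 0.350 FPKM in siSetdb1, without overlap. Since it reached the filter through the siNC libraries alone, no p is given for it. Itgb2, the beta chain of the complement receptors CR3 and CR4, fell from 1.41, 1.58 and 1.39 FPKM to 0.797, 0.960 and 0.661 FPKM (limma adjusted p = 0.0249). It missed the threshold when siNC replicate 2 (0.0762), siSetdb1 replicate 1 (0.0919) or siSetdb1 replicate 3 (0.0792) was left out, and its alpha-chain partner Itgam had at most 3 reads in any library. Of the 10 genes, 1 passed when siSetdb1 replicate 1 was left out, and 2 passed when siNC replicate 2 or either of the other siSetdb1 libraries was.

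Among genes that did not pass, Cr1l, the mouse membrane regulator Crry, was level at 4.11 ± 0.123 FPKM in siNC and 4.16 ± 0.203 FPKM in siSetdb1 (SD, n = 3 each; limma adjusted p = 0.932). Masp1, a protease gene of the lectin branch, had 4.23 ± 0.386 and 3.87 ± 0.471 FPKM (SD, n = 3 each; limma adjusted p = 0.495). C3ar1, the receptor gene for C3a, had 0.872, 0.801 and 0.852 FPKM in siNC and 1.04, 1.12 and 0.951 FPKM in siSetdb1, higher without overlap but with an adjusted p of 0.299 by limma. The terminal component gene C8g had 1.80 ± 0.249 and 1.38 ± 0.168 FPKM (SD, n = 3 each; limma adjusted p = 0.16). C1qa, a C1q chain gene and a macrophage product, had 1 read over the 6 libraries.

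**Figure D2:**
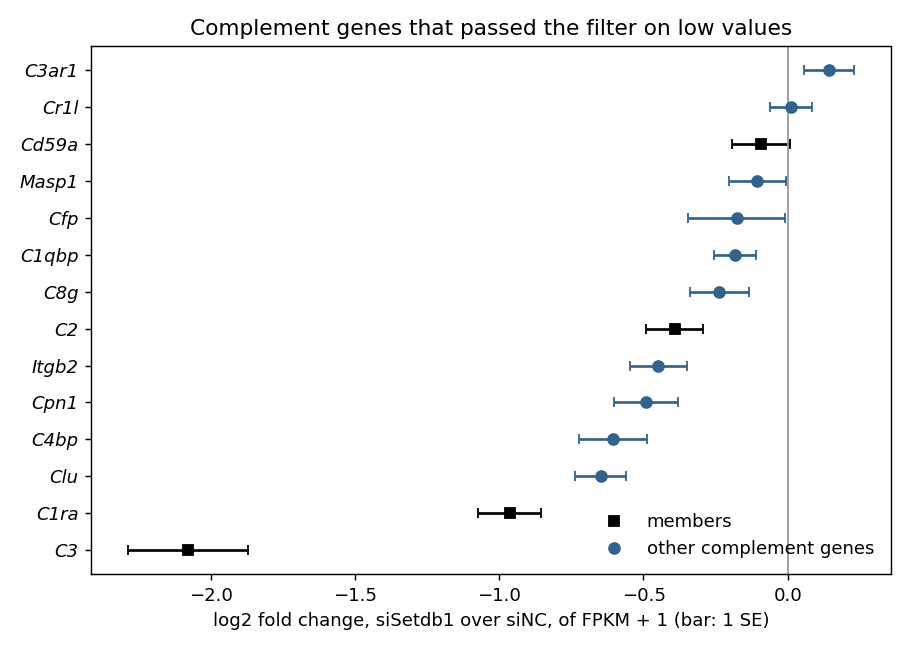
Log2 fold change of FPKM + 1, siSetdb1 over siNC (horizontal axis), for the 14 complement genes that passed the filter on low values; squares are the 4 members, circles the 10 other genes, and bars are 1 SE. C3 lies farthest to the left at -2.08, followed by C1ra at -0.96 and Clu at -0.65, while Cr1l and C3ar1 lie at or right of 0.

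Position was not used to pick the members, so genes within 100 kb of them could be tested. Of 44 such genes that are not complement genes, 23 were tested, of which 4 fell, 1 passed higher and 18 did not pass, beside 15.1% passing in either direction over all genes tested. Their median log2 fold change was -0.14. The gene that passed higher was Cyp21a1, the steroid 21-hydroxylase gene, which lies between C4b and Cfb. It went from 0.195, 0.134 and 0.109 FPKM in siNC to 0.703, 1.15 and 0.760 FPKM in siSetdb1, from 16 reads to 97 in all, with no overlap (log2 fold change 0.70, SE 0.12). It reached the filter through the siSetdb1 libraries alone, so these values are a description with no p, and it has a pseudogene copy nearby, with which reads may be shared. Its direction is opposite to that of C2 and Cfb.

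The 4 neighbours that fell were 1.21-fold to 1.31-fold lower by FPKM means, against 2.39-fold for C2. Nelfe, a subunit gene of the NELF pausing complex that lies 2 bases from Cfb, fell from 20.2 ± 1.73 to 16.1 ± 0.611 FPKM (SD, n = 3 each; limma adjusted p = 0.0376). Ehmt2, a gene 204 bases from the annotated edge of C2 and itself a methyltransferase gene for lysine 9 of histone H3, fell from 41.8 ± 2.93 to 34.5 ± 1.11 FPKM (SD, n = 3 each; limma adjusted p = 0.0468). Lsm2, of the spliceosome, fell from 20.8 ± 1.63 to 15.9 ± 1.52 FPKM, and Pex5, the peroxisomal import receptor gene 97338 bases from C1ra, fell from 13.0 ± 0.538 to 10.0 ± 0.416 FPKM (SD, n = 3 each; limma adjusted p = 0.036 and 0.0163). Each of the 4 genes that fell missed the threshold once siNC replicate 2, siSetdb1 replicate 1 or siSetdb1 replicate 3 was left out, and Nelfe, Ehmt2 and Lsm2 also once siSetdb1 replicate 2 was. Lsm2 and Ehmt2 missed it without siNC replicate 1 as well, and the number of neighbours passing, Cyp21a1 included, was 1, 1, 2 and 1 with siNC replicate 2 and siSetdb1 replicates 1, 2 and 3 left out in turn. Beside C3, none of the 4 tested neighbours (Gm11110, Tnfsf9, Gpr108 and Trip10) passed, with limma adjusted p from 0.25 to 0.739. Of the 4, 0 were at an unadjusted p under 0.05 or called by limma-voom. Over all genes tested 15.1% passed by limma, and limma-voom called 2301 of 12837. With only 4 genes, nothing is read from these counts.

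**Figure D3:**
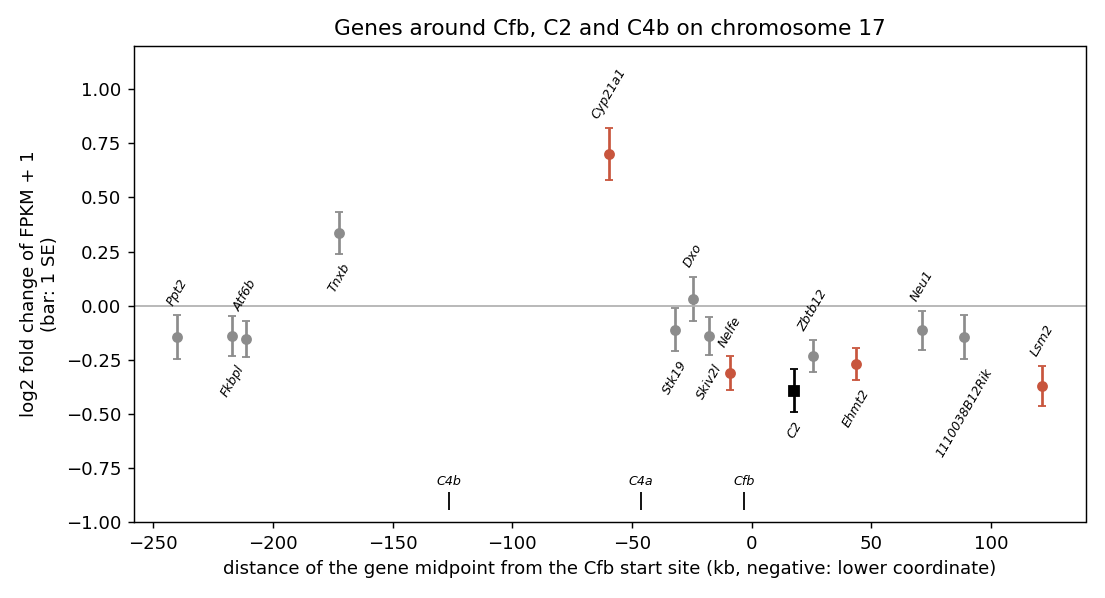
Log2 fold change of FPKM + 1, siSetdb1 over siNC (vertical axis, bars are 1 SE), of the tested genes around Cfb, C2 and C4b, by the distance of each gene's midpoint from the Cfb start site in kb. The black square is C2, red circles are neighbours that passed the limma threshold, grey circles did not pass, and ticks at the bottom mark C4b, C4a and Cfb, which were below the filter. Cyp21a1 is at 0.70 while C2 is at -0.39.

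The tested genes whose profile came nearest to that of C3 were chemokine and plasma protein genes. Nearness was the root-mean-square distance between log2(FPKM + 1) profiles over the 6 libraries, each less its own siNC mean. The 5 nearest were Ccl20, a chemokine gene (distance 0.333), Hp, the haptoglobin gene (0.333), Hpx, the hemopexin gene (0.382), Ttr, the transthyretin gene (0.405), and Gc, the gene of the vitamin D carrier (0.409). All 5 had their lowest siNC value in replicate 2 and their lowest siSetdb1 value in replicate 2, as C3 did. In siSetdb1 replicate 3 the difference from the siNC mean was -1.72 for C3, -1.08 for Hp, -1.01 for Ttr and -2.57 for Gc on the log2 scale. These genes were selected for this likeness, so it is a description over 6 libraries that share the same group difference.

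**Figure D4:**
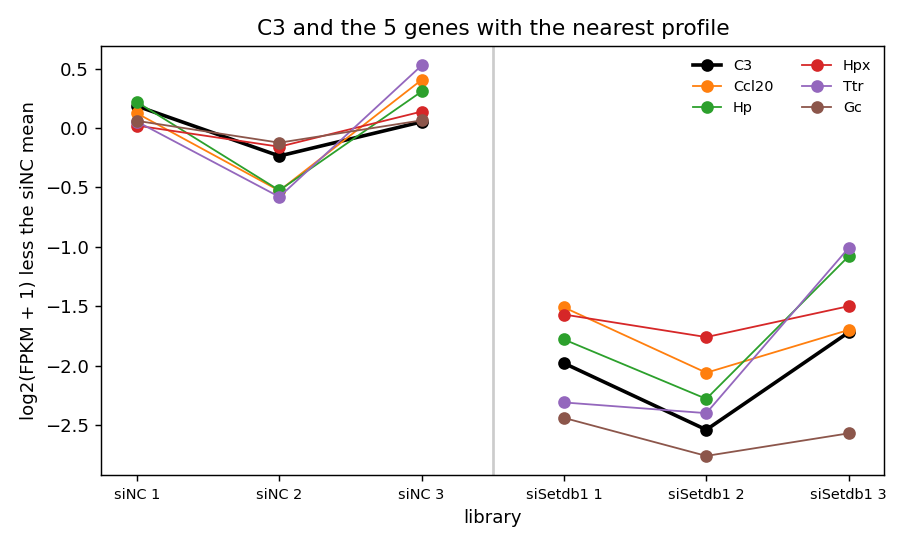
Log2(FPKM + 1) less each gene's siNC mean (vertical axis) in the 6 libraries (horizontal axis) for C3 (black) and the 5 genes with the nearest profile. Points are libraries, and lines only join the values of a gene within a group. C3 runs from -1.72 to -2.54 in the siSetdb1 libraries, and replicate 2 is the lowest of its group for each gene drawn.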

How the data were processed

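Libraries were grouped by their titles. Per the labels' protocols, poly(A) RNA was primed with random hexamers and read as single ends of 50 bases, with no strand-marking step named. Per the submitters' processing notes, HISAT2 2.0.4, Bowtie2 2.2.5, RSEM 1.2.12, DESeq2 1.4.5 and mm10 were used, in roles not given in the sources used here. The values deposited by the authors carry no unit and were found to be FPKM: with GENCODE M21 exon lengths (25372 gene IDs matched), whole reads within 0.01 came out for 98.8% of matched genes. FPKM divides by exon length and library total, so reads shared between copies and gains in abundant genes alter it.

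Genes with at least 0.5 FPKM in 3 libraries (12846) were tested on log2(FPKM + 1) with limma 3.58.1 (R 4.3.3; trend, robust, group only, two-sided, Benjamini-Hochberg, threshold 0.05), checked on simulated reads. The simulation changed only genes above 1 FPKM and used a fixed dispersion, so it does not cover lower genes or an outlying library. The fold scale understates changes of low genes. No library was a copy of another, since within a group they varied beyond read sampling (chi-square over its degrees of freedom, 4.7 to 24.0). Limits from 0 reads cover counting error only (3 reads). Windows of 50 bases came from GENCODE M21 transcripts, promoters from RefSeq. The members and lists were chosen with earlier results of these data known. Named genes were the members, Setdb1, near paralogs, other complement genes and neighbours within 100 kb past the threshold, and the 5 profiles nearest C3; complement genes outside that rule were named after their values were seen. Alternatives are listed in the closing section.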

Additional observations from a re-analysis of the deposited data

How the results depend on the processing

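Clu and Setdb1 kept their direction and their side of the threshold under all 11 alternatives. As a description only, the log2 fold change over the alternatives ran from -2.26 to -1.85 for C3, -2.56 to -0.89 for C1ra, -1.23 to -0.33 for C2, -0.17 to -0.046 for Cd59a and 0.60 to 2.47 for Cyp21a1. Cr1l, which did not pass, changed sign without siNC replicate 1 (-0.00826) and without siSetdb1 replicate 2 (-0.0183), in a range of -0.0183 to 0.0381. The counts that follow include Cpn1 and Cyp21a1, which reached the filter through 1 group, wherever they passed. With no filter on low values 890 genes passed in place of 1945, 2 in place of 4 other complement genes and 2 in place of 5 neighbours. Leaving out 1 library at a time, 683 to 2176 genes, 1 to 3 other complement genes and 1 to 5 neighbours passed, and 2 or 3 members. With the replicate number as a block 1015 genes, 2 other complement genes, 1 neighbour and 2 members passed. The numbers are not shown to pair libraries: deviations of same-numbered libraries correlated at -0.16, 0.17 and -0.17, and replicates 1 and 3 did not correlate best with their own number. With median-ratio scaling 1019 genes rose and 907 fell, against 883 and 1062, and the median of all genes moved from -0.018 to 0.003. The causes of these shifts were not tested. With under 10 reads per library, differences in C4b, Cfi and Cd55 were not detectable.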
